A study of Homo sapiens with 6 samples.

Results

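The genes described here are the 10 core genes of non-homologous end joining (NHEJ), chosen by name out of the 58735 genes in the count table: XRCC5, XRCC6, PRKDC, LIG4, XRCC4, NHEJ1, DCLRE1C, PAXX, POLL and POLM. RNA was sequenced from human colorectal cancer cells, in 3 libraries of control cells and 3 libraries of cells in which a stable shRNA lowered CNOT7. CNOT7 is a deadenylase of the CCR4-NOT complex, which shortens the poly(A) tails of mRNAs. The labels name the line SW480, whereas the paper's text names HCT116 for this experiment, and both groups carry the same line name in the labels. The cells of both groups had received no treatment, so neither group had been irradiated. The sources used here do not state which shRNA the knockdown libraries carry, whether the line came from 1 clone, or whether the libraries of a group came from separate cultures, so the p-values measure only the spread between these libraries, which may be technical.

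NHEJ joins the broken ends of DNA directly, without a template, and is the main route by which human cells rejoin double-strand breaks outside S and G2 phase. The ring formed by Ku70 (XRCC6) and Ku80 (XRCC5) slides onto each end and holds DNA-PKcs (PRKDC), a large kinase, there. The nuclease Artemis (DCLRE1C) and the polymerases lambda (POLL) and mu (POLM) trim and fill the ends, the scaffolds XRCC4, XLF (NHEJ1) and PAXX hold them together, and DNA ligase IV (LIG4) seals them. The comparison of the groups asked how far the mRNAs of this machinery differ when CNOT7 is low, and the study follows XRCC6 in particular. The paper reports the loss of XRCC6 with knockdown for the protein, which RNA counts do not measure. By RT-qPCR after radiotherapy, it found no significant difference in the mRNAs related to NHEJ. Those assays used HCT116 cells with knockdown and SW480 cells with overexpression of CNOT7. They also covered genes of homologous recombination, and primers for MRE11 and RAD50 are listed.

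The promoters of XRCC6 and PAXX are shown because XRCC6 is the member the study follows and PAXX was the member with the largest fall, described below. The sequences are those of RefSeq on GRCh38.p14, from 250 bases before the start of transcription to 50 bases after it, written 5′ to 3′ on the strand of the gene. Capitals mark the GC box, searched as GGGCGG and, for the other strand, CCGCCC. The XRCC6 promoter is at chr22:41621045-41621344 on the + strand and the PAXX promoter at chr9:136992172-136992471 on the + strand.
XRCC6: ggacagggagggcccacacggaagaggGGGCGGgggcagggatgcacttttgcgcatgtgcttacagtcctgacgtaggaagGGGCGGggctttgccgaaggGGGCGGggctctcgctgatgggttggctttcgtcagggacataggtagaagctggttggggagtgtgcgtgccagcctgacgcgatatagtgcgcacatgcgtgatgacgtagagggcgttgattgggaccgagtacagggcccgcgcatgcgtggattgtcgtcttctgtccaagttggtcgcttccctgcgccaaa
PAXX: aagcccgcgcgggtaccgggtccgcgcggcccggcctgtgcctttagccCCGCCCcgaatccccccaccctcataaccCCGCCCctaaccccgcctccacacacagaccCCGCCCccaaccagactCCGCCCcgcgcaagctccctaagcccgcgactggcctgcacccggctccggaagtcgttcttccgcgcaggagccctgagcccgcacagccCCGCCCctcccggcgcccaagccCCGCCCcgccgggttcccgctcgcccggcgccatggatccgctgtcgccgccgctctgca

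The XRCC6 promoter held 3 GC boxes and the PAXX promoter 6, and 44.6% of the 27305 promoters of this length in the table held at least 1. The XRCC6 promoter also held 2 matches to the core of the cyclic AMP response element, searched as TGACGT and ACGTCA, which 8.32% of the promoters held, and the PAXX promoter held none. A promoter was found for 8 of the 10 genes, and those of XRCC5 and PRKDC are not described here.

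CNOT7 itself was lower in every library of the knockdown group. In CPM, the count of a gene relative to the TMM-scaled total of its library, it stood at 169, 191 and 176 in the control libraries and at 43.4, 47.2 and 38.6 in the knockdown libraries, a log2 fold change of -2.05 (SE 0.0734) with an adjusted p of 2.64e-12 by the quasi-likelihood test of edgeR with Benjamini-Hochberg adjustment over all 17574 genes tested. Its paralogue CNOT8, also a deadenylase, was higher in the knockdown group, with a log2 fold change of 0.29 (SE 0.0612, adjusted p 0.00204 in the same edgeR test). The total counts ran from 23788451 to 25982493 in the control libraries and from 27523812 to 29104872 in the knockdown libraries. Of the 8 colorectal epithelial markers, 7 were expressed well enough to test, and KRT20, a keratin of differentiated colon cells, had at most 4 counts in a library. CDH1, which encodes E-cadherin, and VIL1, which encodes villin, were higher with knockdown (log2 fold changes 0.51 and 0.72, adjusted p 1.55e-04 and 2.94e-05), and the keratins KRT8 and KRT19 lower (-0.15 and -0.18, adjusted p 0.0414 and 0.0212 in edgeR). Both keratins passed in 2 of the 6 fits that leave out a library and neither with the abundance trend, described below, removed (adjusted p 0.447 and 0.211). The groups overlapped for KRT8, and 44% of the exonic bases of VIL1 are shared with a gene on the other strand. Of 11 markers of immune, endothelial and stromal cells, 7 were under 1 CPM, COL3A1 and DCN had no count in any library, and the summed level was 14.9 to 17.95 CPM in the control group and 18.9 to 21.2 CPM in the knockdown group.

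Per kilobase, the NHEJ core genes fell into a high and a low tier, with PAXX between them. With counts scaled to library size by the TMM method and divided by the summed length of the exons (RPKM), XRCC5 lay at 140, 153 and 144 in the control libraries and XRCC6 at 143, 145 and 143. These ranges overlap, so by this length the order of the Ku subunits was not resolved. By the length of the principal annotated transcript, XRCC5 lay at 203.4 to 222.5 RPKM and XRCC6 at 173.6 to 176.2. Their order thus depends on the length used. By the summed exon length, PRKDC followed at 62.7, 68.4 and 64.3 RPKM. The 3 genes of the DNA-PK holoenzyme thus made up 89.4% of the summed level of the 10 genes in the control group and 89.3% in the knockdown group. NHEJ1, whose level is uncertain for the reason given below, enters the control sum at 0.02 RPKM.

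PAXX, the scaffold that binds Ku, stood next at 20.2 to 21.2 RPKM in the control libraries, apart from its neighbours on either side. POLM lay at 5.83 to 6.72 RPKM, followed by XRCC4 at 4.09 to 5.11, LIG4 at 3.49 to 4.23 and POLL at 3.60 to 3.89. By this length, the range of LIG4 overlapped those of XRCC4 and POLL. By the length of the principal annotated transcript, LIG4 lay at 3.66 to 4.44 RPKM, below XRCC4 at 6.68 to 8.36 and POLL at 6.99 to 7.55. The order of the ligase and its obligate partner thus depends on the length used. By the summed exon length, DCLRE1C lay at 2.78 to 3.32 RPKM.

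NHEJ1 was at the bottom of the order, with 3, 2 and 0 counts in the control libraries and 8, 7 and 2 in the knockdown libraries. It did not pass the filter on low counts, so the edgeR test covers the other 9 genes. In GENCODE release 29, 65.4% of its exonic bases, and 93.2% of those of its principal transcript, also belong to AC068946.1, a gene on the same strand that runs through it and had 3 to 11 counts in each library. Of protein-coding genes that share at least 90% of their exonic bases, 97.7% had a mean under 10 counts, against 37.3% of those sharing none. How reads from shared bases were counted was not tested. The level of NHEJ1 is therefore uncertain, and nothing is read from it. None of the exonic bases of XRCC5, XRCC6, PRKDC, LIG4, XRCC4 and PAXX are shared, and the pseudogenes XRCC6P1 to XRCC6P5 and DCLRE1CP1 had at most 2 counts in any library.

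**Figure D1:**
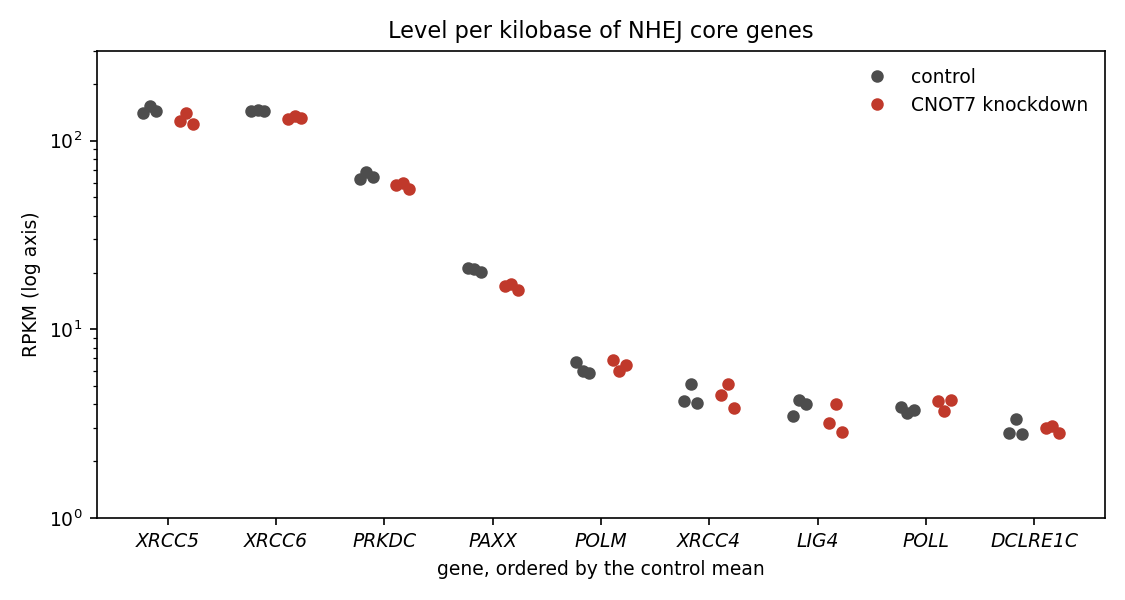
Level of 9 NHEJ core genes in each library, as RPKM on a log axis, with the genes ordered by their mean in the control libraries and NHEJ1 left out because it had 0 counts in 1 library. XRCC5, XRCC6 and PRKDC sit above 50 RPKM in all 6 libraries and POLM, XRCC4, LIG4, POLL and DCLRE1C below 10, with PAXX between them.

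Between the groups, 3 of the 9 genes tested passed the threshold of an adjusted p under 0.05, all of them lower with knockdown: PRKDC, XRCC5 and PAXX. Of all genes tested, 25.2% passed in either direction and 11.9% were lower. In 4 of the 9 genes every knockdown library lay below every control library, which was so for 18.2% of all genes tested, and 38.8% of all genes had groups that did not overlap in either direction. The median log2 fold change was -0.12 over the 9 genes and 0.00393 over all genes, and 6 of the 9 values were below 0, against 49.3% over all genes. These are bulk libraries, so fewer cells expressing a gene and less of its RNA per cell cannot be told apart.

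**Figure D2:**
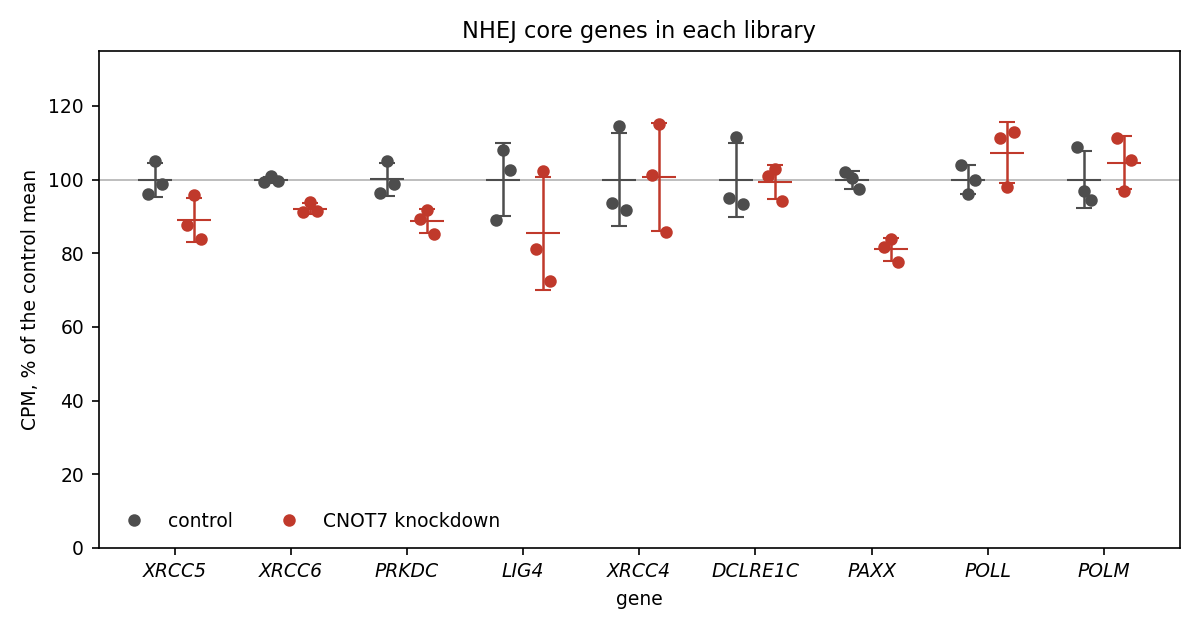
CPM of 9 NHEJ core genes in each library as a percentage of the mean of the control libraries, with points for libraries and bars for the mean ± SD (n = 3 per group). The knockdown points lie below all control points for XRCC5, XRCC6, PRKDC and PAXX, and the groups overlap for LIG4, XRCC4, DCLRE1C, POLL and POLM.

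The Ku subunits and the kinase they recruit stood, as fitted, at 88.7% to 92.1% of their control levels, and XRCC5 and PRKDC passed the test while XRCC6 did not. XRCC6 (Ku70, ENSG00000196419, chr22:41621119-41664048, + strand) stood at 470, 477 and 471 CPM in the control libraries and at 431, 444 and 432 CPM in the knockdown libraries. The highest knockdown library lay below the lowest control library, so the groups did not overlap. The log2 fold change was -0.12 (SE 0.0469, 95% interval -0.22 to -0.02), or 92.1% of the control level, with an adjusted p of 0.074 in edgeR, so XRCC6 missed the threshold. XRCC6 passed in 1 of the 6 fits that leave out a library, the one without knockdown replicate 2 (adjusted p 0.044 in edgeR). The largest adjusted p of these 6 fits was 0.187. Of 7 other ways of processing, XRCC6 passed in 3, DESeq2 among them (adjusted p 0.0452), and the largest adjusted p was 0.470 in edgeR.

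XRCC5 (Ku80, ENSG00000079246, chr2:216107464-216206303, + strand) stood at 765, 837 and 788 CPM in the control libraries and at 698, 762 and 668 CPM in the knockdown libraries. The groups did not overlap, but knockdown replicate 2 came within 3 CPM of control replicate 1. XRCC5 fell by 10.9% (log2 fold change -0.17, SE 0.0554, adjusted p 0.0351 in edgeR). The call rested on single libraries: the adjusted p was 0.107 without knockdown replicate 1, 0.128 without knockdown replicate 3, 0.110 without control replicate 2 and 0.0857 without control replicate 3.

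PRKDC (DNA-PKcs, ENSG00000253729, chr8:47773108-47960183, - strand) had the most counts of the 10 genes, with 967, 1054 and 992 CPM in the control libraries and 896, 921 and 857 CPM in the knockdown libraries. All knockdown libraries lay below all control libraries. PRKDC fell by 11.3% (log2 fold change -0.17, SE 0.0498, adjusted p 0.0169 in edgeR). The adjusted p rose to 0.0663 without control replicate 2, to 0.052 without control replicate 3 and to 0.0623 without knockdown replicate 3.

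Highly expressed genes were lower more often than others in these libraries, which bears on all members of the DNA-PK holoenzyme. Of the 289 tested genes with at least 400 CPM, as these 3 genes have, 33.2% were lower and 8.997% higher, with a median of -0.07 on the log2 scale, whereas of the 7467 genes under 10 CPM 4.02% were lower and 14.3% higher, with a median of 0.13. When this trend with abundance was removed, the log2 fold change was -0.10 for PRKDC, -0.09 for XRCC5 and -0.05 for XRCC6. None of the 3 then passed the threshold, with adjusted p of 0.127 for PRKDC, 0.186 for XRCC5 and 0.470 for XRCC6 in edgeR. The source of the trend was not tested.

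The scaffold PAXX showed the largest fall of the core genes. PAXX (ENSG00000148362, chr9:136992418-136993984, + strand) lies in the middle of the abundance range, at 28.95, 28.5 and 27.6 CPM in the control libraries and 23.2, 23.8 and 22.0 CPM in the knockdown libraries. The gap between the groups was larger than the spread within either. PAXX fell by 18.9% (log2 fold change -0.30, SE 0.0752, 95% interval -0.46 to -0.14, adjusted p 0.00665 in edgeR). Unlike PRKDC and XRCC5, it passed the threshold with each of the 6 libraries left out (adjusted p 0.00508 to 0.0288) and with the abundance trend removed (adjusted p 0.0084).

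The ligase and its partner did not pass the test. LIG4 (DNA ligase IV, ENSG00000174405, chr13:108207439-108218368, - strand) stood at 15.3, 18.6 and 17.6 CPM in the control libraries and at 13.9, 17.6 and 12.5 CPM in the knockdown libraries. Knockdown replicate 2 lay within the control range, and the other knockdown libraries lay below it. The log2 fold change was -0.23 (SE 0.118, 95% interval -0.48 to 0.02, adjusted p 0.175 in edgeR), and without knockdown replicate 2 it was -0.38 with an adjusted p of 0.0124. XRCC4, the scaffold that stabilises the ligase (ENSG00000152422, chr5:83077498-83353787, + strand), had 11.2, 13.7 and 10.9 CPM in the control libraries and 12.1, 13.7 and 10.2 CPM in the knockdown libraries. Replicate 2 was the highest in both groups and the groups overlapped fully. The log2 fold change of XRCC4 was 0.01 (SE 0.121, 95% interval -0.24 to 0.27, adjusted p 0.960 in edgeR), with a sign that turned when no filter was used or the abundance trend was removed.

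The end-processing enzymes also did not pass the test. DCLRE1C (Artemis, ENSG00000152457, chr10:14897359-14954432, - strand) stood at 17.9, 21.0 and 17.6 CPM in the control libraries and at 19.1, 19.4 and 17.7 CPM in the knockdown libraries, within the control range. Its log2 fold change was -0.01 (SE 0.0916, 95% interval -0.20 to 0.19, adjusted p 0.962 in edgeR). POLL (polymerase lambda, ENSG00000166169, chr10:101578882-101588270, - strand) had 21.1, 19.5 and 20.3 CPM in the control libraries and 22.6, 19.9 and 22.9 CPM in the knockdown libraries. Of the knockdown libraries, replicates 1 and 3 lay above the control range and replicate 2 within it. The log2 fold change was 0.10 (SE 0.0851, 95% interval -0.08 to 0.28, adjusted p 0.424 in edgeR). POLM (polymerase mu, ENSG00000122678, chr7:44072247-44082540, - strand) had 30.2, 26.8 and 26.2 CPM in the control libraries and 30.9, 26.9 and 29.2 CPM in the knockdown libraries. These ranges overlapped, with a log2 fold change of 0.06 (SE 0.0820, 95% interval -0.11 to 0.24, adjusted p 0.622 in edgeR). The intervals of these 3 enzymes leave room for changes of up to 21.5%, so they do not show that the levels were equal.

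**Figure D3:**
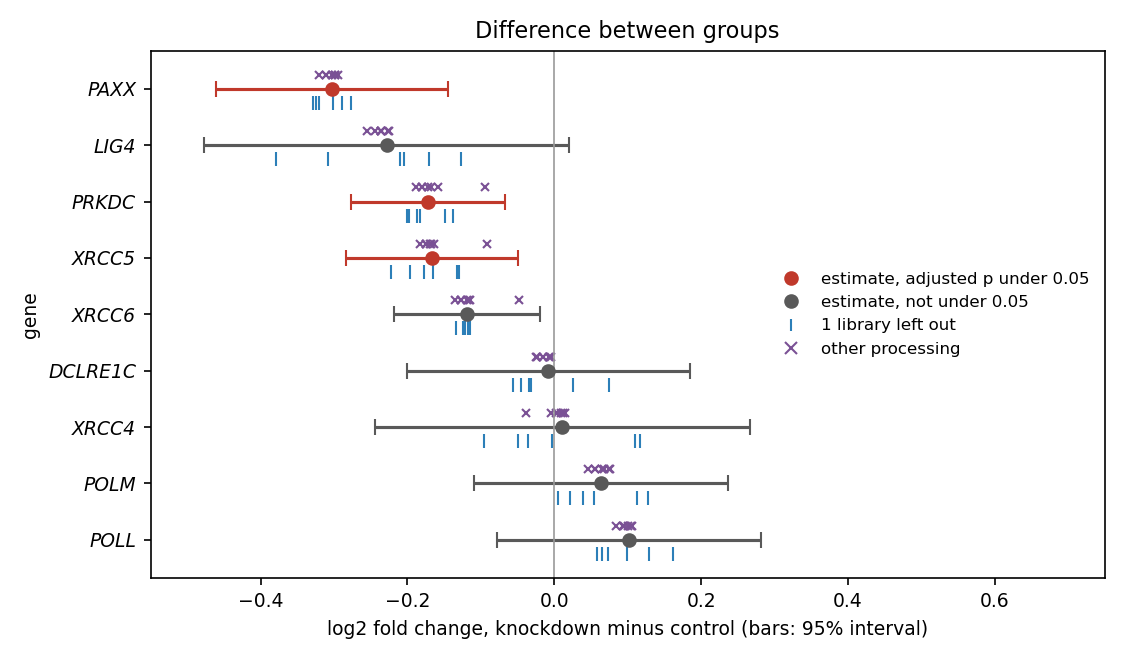
Log2 fold change of 9 NHEJ core genes, knockdown minus control, with its 95% interval from edgeR, blue ticks for the fits that leave out 1 library and crosses for the other 7 ways of processing. PAXX stays between -0.33 and -0.28 when a library is left out, the cross nearest 0 for PRKDC, XRCC5 and XRCC6 is the removal of the abundance trend, and XRCC4 and DCLRE1C change sign among the fits.

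Ratios between members within a library do not depend on how libraries are scaled, but with 3 against 3 libraries the exact test cannot go below a p of 0.1, so none of the 4 ratios tested could pass the threshold and they are given as values. XRCC5 to XRCC6, per kilobase, was 1.01 ± 0.0385 (SD, n = 3) in the control group and 0.980 ± 0.0519 in the knockdown group, and the groups overlapped (two-sided exact permutation test, p = 0.4). PRKDC to the mean of the Ku subunits was 0.4497 ± 0.00785 and 0.441 ± 0.00741 (exact permutation p = 0.3), and POLL to POLM was 0.608 ± 0.0314 and 0.622 ± 0.0241 (exact permutation p = 0.5). Each ratio uses the summed exon length, and its value depends on that choice. LIG4 to XRCC4 was 0.835, 0.829 and 0.984 in the control libraries and 0.705, 0.781 and 0.742 in the knockdown libraries. Here every knockdown library lay below every control library, with an exact permutation p of 0.1, the smallest that this design allows, and an adjusted p of 0.4 over the 4 ratios.

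**Figure D4:**
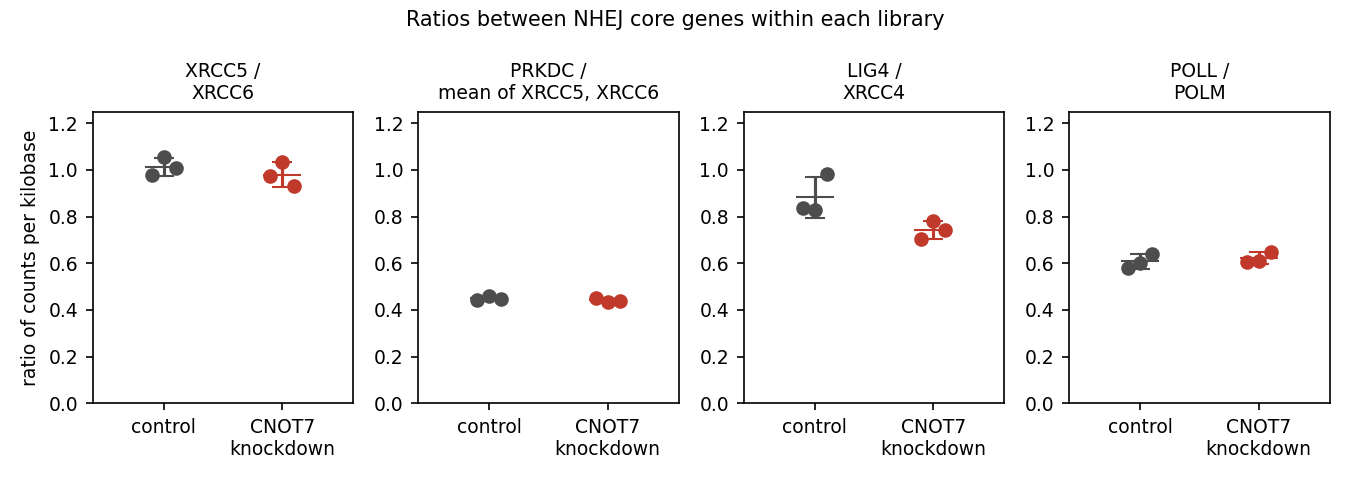
Ratios of counts per kilobase between NHEJ core genes within each library, with points for libraries and bars for the mean ± SD (n = 3 per group). The groups overlap for XRCC5 to XRCC6, PRKDC to the Ku mean and POLL to POLM, and LIG4 to XRCC4 lies between 0.829 and 0.984 in the control libraries and between 0.705 and 0.781 in the knockdown libraries.

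Several core genes share a promoter region with a gene on the other strand, a property looked at after the values were seen. Of the 10 genes, 4 start within 1000 bases of a protein-coding gene that runs the other way, against 16.7% of the 13683 protein-coding genes tested. By their outermost annotated starts, PRKDC and MCM4, a subunit of the replicative helicase, lie 2 bases apart, LIG4 and ABHD13 11 bases, and XRCC6 and DESI1 23 bases, while XRCC4 and TMEM167A overlap at their starts. MCM4 was lower with knockdown, at 490, 494 and 514 CPM in the control libraries and 419, 422 and 419 CPM in the knockdown libraries (log2 fold change -0.25, SE 0.0474, adjusted p 8.68e-04 in edgeR). The pair PRKDC and MCM4 thus passed the threshold in the same direction. DESI1, the neighbour of XRCC6, had a log2 fold change of -0.07 (adjusted p 0.471), and ABHD13 and TMEM167A of -0.01 and 0.03 (adjusted p 0.946 and 0.814 in edgeR), so these 3 were not called.

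The genes that modify or regulate NHEJ are given by list, to be read against the 25.2% of all tested genes that passed the threshold and the 11.9% that were lower. Of 8 accessory factors, 1 was higher and none lower, with a median log2 fold change of -0.02. The gene was APLF, a histone-binding scaffold that works with Ku, at 10.2 ± 0.577 CPM in the control group and 12.9 ± 1.70 in the knockdown group (log2 fold change 0.34, adjusted p 0.0344 in edgeR). It passed in 2 of the 6 fits that leave out a library and had an adjusted p of 0.0808 with the abundance trend removed. APLF shares 22.8% of its exonic bases, though none of its principal transcript, with a gene on the same strand. Of the 10 genes of the 53BP1 axis, which protects ends from resection and so favours NHEJ, 1 was lower, with a median of -0.09. This is near the 11.9% of all genes that were lower. Values were below 0 for 9 of the 10, against 49.3% of all genes. In 5 of the 10 every knockdown library lay below every control library, against 18.2% of all genes. DYNLL1, a dynein light chain that binds 53BP1, fell by 17.3% (log2 fold change -0.27, adjusted p 0.00131). TP53BP1, which encodes 53BP1 itself, stood at 69.7, 68.2 and 71.3 CPM in the control libraries and at 67.2, 62.0 and 66.7 CPM in the knockdown libraries. The groups did not overlap, but the log2 fold change of -0.09 had an adjusted p of 0.282 in edgeR. TP53BP1 shares 28.7% of its exonic bases with a gene on the other strand.

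Of 7 genes listed under Ku turnover, 2 were lower and none higher, with a median of -0.14. Among all genes 11.9% were lower and 25.2% passed in either direction, and the share of the list was not tested against these. The list includes TRIM28, which the paper found among proteins bound to CNOT7 but did not follow, so its members need not act on Ku. The lower genes were VCP, a segregase that extracts proteins from chromatin (log2 fold change -0.14, adjusted p 0.0392), and TRIM28, a corepressor with ubiquitin and SUMO ligase activity (-0.14, adjusted p 0.0496 in edgeR). Each kept its call in 1 of the 6 fits that leave out a library, and neither kept it with the abundance trend removed. TRIM21, the ubiquitin ligase that the study places upstream of XRCC6, stood at 11.7, 11.6 and 12.1 CPM in the control libraries and at 12.0, 11.8 and 13.6 CPM in the knockdown libraries. The groups overlapped, and the log2 fold change was 0.08 (SE 0.0984, adjusted p 0.611 in edgeR).

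The routes that compete for the same ends are resection and alternative end joining, and their counts were not tested against the 25.2% of all genes that passed. Of 7 end resection genes, which begin homologous recombination, 3 were lower and 1 higher, with a median of -0.21. Those lower were DNA2, a nuclease and helicase (log2 fold change -0.32, adjusted p 0.00428), RBBP8, which encodes the resection factor CtIP (-0.29, adjusted p 0.0057), and RAD50, of the MRE11 complex (-0.36, adjusted p 0.0168 in edgeR). RAD50 shares 79.7% of its exonic bases with another gene on the same strand, so its level is uncertain, and its adjusted p was 0.052 without control replicate 3 and 0.051 without knockdown replicate 1. MRE11, the nuclease of that complex, was higher, at 86.7, 99.2 and 94.3 CPM in the control libraries and 112, 117 and 108 CPM in the knockdown libraries (0.26, adjusted p 0.00432 in edgeR). Of 6 genes of alternative end joining, 3 were lower, with a median of -0.18. They were FEN1, a flap nuclease (-0.36, adjusted p 1.52e-04), PARP2, a sensor of DNA breaks (-0.28, adjusted p 0.021), and POLQ, the polymerase that defines this route (-0.23, adjusted p 0.0203 in edgeR). PARP2 lost its call without control replicate 2, knockdown replicate 1 or knockdown replicate 3 (adjusted p up to 0.105), and POLQ without control replicate 2, control replicate 3 or knockdown replicate 3 (up to 0.0843) and with the abundance trend removed (0.0552 in edgeR). Of the 3 genes that bring NHEJ into V(D)J recombination in lymphocytes, only RAG1 was expressed well enough to test, with a log2 fold change of 0.23 (adjusted p 0.181 in edgeR), and DNTT had no count in any library.

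Of 15 genes of S phase and proliferation, 11 were lower, 4 did not pass and none was higher, against 11.9% lower among all genes and 33.2% among those with at least 400 CPM. This share was not tested for enrichment. The median was -0.20 on the log2 scale, and their summed level was 5433 to 5623 CPM in the control libraries and 4801 to 5036 CPM in the knockdown libraries. The falls were largest for CCNE2, which encodes cyclin E2 (-0.61), and RRM2, the small subunit of ribonucleotide reductase (-0.47), and followed for TYMS (-0.30), MCM5 (-0.26), MCM4 (-0.25), the clamp gene PCNA (-0.24), MCM7 (-0.22), MCM2 (-0.20), MKI67 (-0.18), MCM3 (-0.15) and MCM6 (-0.14), with adjusted p from 1.87e-05 to 0.0492 in edgeR. The 4 that did not pass were RRM1 (-0.14), CCNB1 (-0.10), TOP2A (-0.03) and CDK1 (-0.02), with adjusted p from 0.0800 to 0.856 in edgeR. With the abundance trend removed, MCM2, MCM3, MCM6, MCM7 and MKI67 lost their calls (adjusted p 0.126, 0.217, 0.286, 0.0512 and 0.128). Of the 6 fits that leave out a library, MCM6 was called in 1, MCM3 in 2, and MCM2 and MKI67 in 3. CCNE2 shares 37.1% of its exonic bases, TYMS 46.6% and MCM2 23.6% with genes on the other strand. RRM2 shares 20.2% with a gene on the same strand. Reads from these shared bases cannot be told apart from those of the other genes, and how they were counted was not tested. FEN1, DNA2 and POLQ also act at replication forks, and the part that proliferation has in the values of the NHEJ core genes was not tested.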

How the data were processed

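The authors extracted total RNA with TRIzol and prepared libraries with the NEBNext Ultra kit. Per the submitters' processing notes, CASAVA 1.8, fastp, HISAT2 2.0.5, featureCounts 1.5.0-p3 and DESeq2 1.20.0 were used on GRCh38. The deposited values are raw counts per gene, with no normalization. The kit does not mark strand, so reads from overlapping genes cannot be told apart. Positions equalled GENCODE 29 for all 58735 genes. Columns of other samples numbered 0.

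Of 58735 genes, 17574 passed filterByExpr and were tested in R 4.3.3 with edgeR 4.0.16 (TMM, glmQLFit, glmQLFTest, no covariate), with Benjamini-Hochberg adjustment over all of them and a threshold of 0.05. CPM and RPKM use TMM-scaled library sizes. The steps were tested on simulated data. Replicate libraries differed by more than sampling noise, so none is a copy. The ratio of NHEJ1 to PAXX could not be computed because of a count of 0, which left 4 ratios. Alternatives were DESeq2 1.42.0, RLE factors, other filters, a replicate block, offsets that remove the abundance trend (cyclic loess, limma 3.58.1), each library left out and, added after seeing the data, offsets for GC content and length (lowess, span 0.3) and the length of the principal transcript. The members and all lists were chosen with earlier results of these data known. Genes named are the 10 members, CNOT7, each list gene past the threshold, TRIM21 and TP53BP1, and neighbours of members chosen after values were seen. The S phase and proliferation genes that did not pass are named too. A result for 1 list gene is not reported here. Python 3.11.15 and matplotlib 3.10.9 made tables and plots.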

Additional observations from a re-analysis of the deposited data

How the results depend on the processing

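Whether libraries with the same number are paired was not settled. The deviations of same-numbered libraries correlated with r of 0.0559, 0.272 and -0.00824 over 14715 genes. Knockdown replicates 1 and 2 correlated best with the control of their own number, and knockdown replicate 3 with control replicate 1 (0.243). Deviations from the mean of 3 libraries constrain each other, so this check cannot exclude pairing. With the replicate block, 5 NHEJ core genes were called in place of 3, XRCC6 (adjusted p 0.00437) and LIG4 (adjusted p 0.0307 in edgeR) being added, 3306 of all genes were lower in place of 2095, and the calls were 2 among the accessory factors, 3 in the 53BP1 axis and 4 among the Ku turnover genes. With GC and length trends removed, these numbers were 5, 3151, 2, 2 and 4. With the abundance trend removed, 1 core gene (PAXX), 0 accessory factors, 1 Ku turnover gene and 6 of the S phase genes were called, and XRCC4 turned to -0.038. XRCC4 was also just below 0 with no filter (-0.0049), and 1 Ku turnover gene was called with at least 10 counts in every library. With the length of the principal transcript, the shares of the summed level were 39.7% for XRCC5, 32.8% for XRCC6, 13.9% for PRKDC and 6.56% for PAXX, in place of 36.7%, 36.3%, 16.4% and 5.23%, and DCLRE1C moved to rank 6.

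Leaving out 1 library at a time gave 1 to 5 core genes called, 1367 to 2219 genes lower (the fewest without control replicate 3) and 1626 to 2323 higher. The called genes numbered 0 to 1 among the accessory factors, 1 to 2 in the 53BP1 axis, 0 to 2 for Ku turnover, 3 to 6 for end resection, 1 to 3 for alternative end joining and 7 to 13 for S phase. Only PAXX was called without control replicate 2, control replicate 3 or knockdown replicate 3. The log2 fold change ran from -0.096 to 0.12 for XRCC4 and from -0.057 to 0.075 for DCLRE1C, and kept its sign for the other 7 core genes tested. Except for the alternatives named here, each count of calls stayed within 1.5 times its value in the report. The causes of these changes were not tested. With 3 libraries per group, the exact test of a ratio cannot go below 0.1, and the interval of LIG4 runs from -28.1% to 1.41%.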
